A study of Mus musculus with 48 samples.

Results

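Aminoacyl-tRNA synthetases are the enzymes that join each amino acid to its tRNA, and their daily and steady expression was followed here in mouse kidney at the level of transcripts and of translating ribosomes. The members were the genes listed in both assays whose symbol is the one-letter amino acid code followed by ars, with or without a final 1 or 2, together with Eprs, Farsa and Farsb. They numbered 37 of the 12423 genes listed in both assays, and all 37 passed the filter on low values (a median of at least 0.5 RPKM in both assays), which kept 11863 genes. The symbols that end in 2 (17 genes) name the mitochondrial enzymes and the other 20 the cytosolic ones. This split rests on the symbols alone. The single genes Gars and Kars are known to provide the enzyme of both compartments, and Qars has no partner that ends in 2.

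The tissue was whole kidney of male C57BL/6JRj mice that carried no transgene and received no treatment. The animals were kept in a light-dark cycle with lights on at ZT00 and off at ZT12, and kidneys were taken every 2 h over 12 time points. At each time point 2 replicate pools were made, each from 2 mice, and every pool gave 1 RNA-seq and 1 RPF-seq library, or 48 libraries in all. RPF-seq sequences the footprints that ribosomes protect on mRNA, and translation efficiency (TE) is the RPF value of a pool divided by its RNA value.

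Cytosolic synthetases charge the tRNAs used by ribosomes of the cytosol. Several of them are held with the scaffold proteins Aimp1, Aimp2 and Eef1e1 in a multi-synthetase complex. Mitochondrial synthetases are encoded in the nucleus, made in the cytosol and imported, and they serve the few proteins made inside mitochondria, which are subunits of the respiratory chain and of ATP synthase. Class I and class II enzymes have unrelated catalytic folds. Many cytosolic synthetase genes are known targets of ATF4, a transcription factor that is induced when amino acids are short.

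The libraries differed in depth by up to a few fold. The reads on coding sequences, recovered from the steps between RPKM values, ran from 7985254 to 26817944 in RNA-seq and from 11718688 to 25512440 in RPF-seq. A member rested on a median of 93 to 3770 reads in RNA-seq and 129 to 4894 in RPF-seq, with Pars2 at the low end of both. Libraries from ZT00 to ZT10 were deeper than later ones, with a median relative depth of 1.14 against 0.812 in RNA-seq and 1.18 against 0.910 in RPF-seq, and the part of this difference in the daily curves was not tested. The RPF libraries of ZT04 replicate 2 and ZT16 replicate 2 and the RNA libraries of ZT10 replicate 2 and ZT12 replicate 2 lay farthest from the fitted curves of all genes (median distance 0.157 to 0.181 on the log2 scale, where the median library lay at 0.0975 for RNA and 0.101 for RPF). All 8 kidney marker genes were listed, their summed RNA lying between 43743 and 70933 RPKM. The 3 pancreas markers were not listed. Of the 5 liver markers 4 were listed, with mean RNA from 2.53 RPKM for Fgb to 288 RPKM for Ttr, while the red cell gene Hba-a1 averaged 65.7 RPKM. The clock genes Arntl and Dbp had their fitted RNA peaks at ZT22.5 and ZT10.5.

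The cytosolic genes had more RNA than the mitochondrial ones. The median of the mean RNA levels was 36.8 RPKM for the 20 cytosolic genes (from 9.45 for Cars to 99.2 for Sars) and 16.3 RPKM for the 17 mitochondrial genes (from 3.82 for Pars2 to 70.0 for Iars2), with 15.3 RPKM over all listed genes. Summed over the set, cytosolic RNA amounted to 831 ± 34.7 RPKM (SD, n = 24 pools) and mitochondrial RNA to 342 ± 11.5 RPKM. For footprints these sums were 1005 ± 35.1 and 334 ± 9.39 RPKM. The ratio of the cytosolic to the mitochondrial sum ran from 2.24 to 2.60 in RNA and from 2.73 to 3.25 in footprints, so that the ranges over pools did not overlap. In bulk tissue, fewer cells of a type and less RNA per cell cannot be told apart.

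Sars, the seryl-tRNA synthetase of the cytosol, had RNA values from 85.9 to 129 RPKM (median 98.8) over the 24 pools. Nars, which charges asparagine tRNA, followed with 76.1 to 97.0 RPKM (median 87.0), and Dars, which charges aspartate tRNA, with 64.3 to 95.9 RPKM (median 79.0). These 3 ranges overlap their neighbours in the order. At the other end of the cytosolic set stood Cars for cysteine (7.86 to 10.9 RPKM), Vars for valine (13.999 to 20.3 RPKM) and Yars for tyrosine (14.3 to 26.2 RPKM). The level of Yars is uncertain per length, since its values rest on about 388 coding bases and on 66 to 217 RNA reads, whereas its longest annotated coding sequence has 1692 bases. Every other member's coding length lay within 10% of the longest annotated one.

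Among the mitochondrial enzymes, Iars2 for isoleucine had 63.7 to 77.1 RPKM (median 69.5), a range above that of every other gene in its set. Fars2 for phenylalanine had 39.6 to 49.6 RPKM and Rars2 for arginine 31.3 to 41.6 RPKM. The lowest were Pars2 for proline with 2.63 to 4.88 RPKM, Sars2 with 5.81 to 10.1 RPKM and Wars2 for tryptophan with 6.64 to 10.6 RPKM. Sars and Sars2 thus occupied nearly opposite ends of the order of members.

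**Figure D1:**
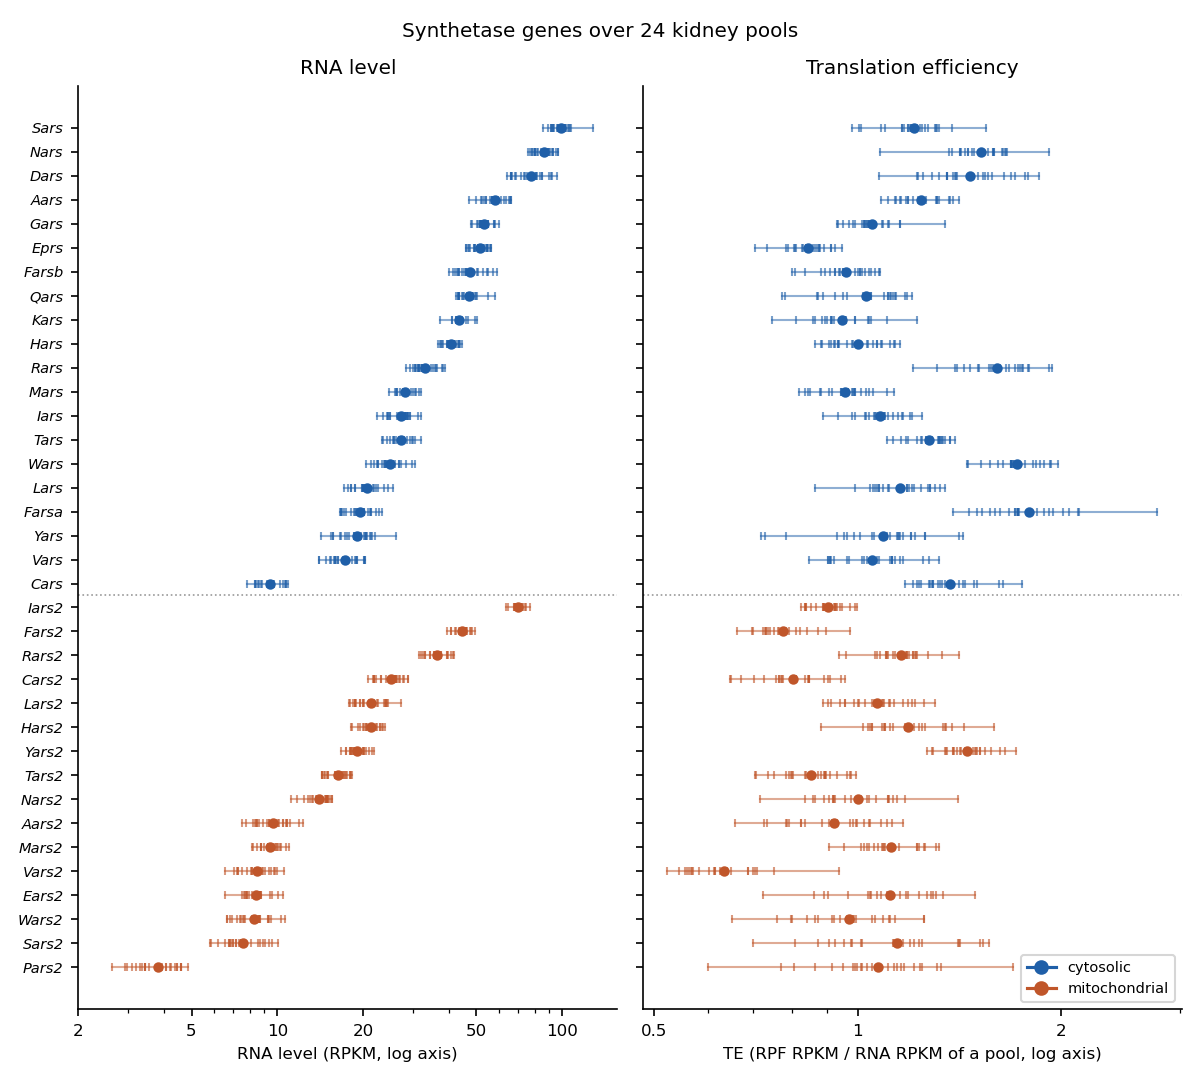
RNA level in RPKM (left) and TE as the RPF to RNA ratio of a pool (right), both on log axes, for 36 of the genes, with cytosolic genes above the dotted line and mitochondrial genes below it. Ticks are the 24 pools, lines their range and dots their mean. Mean RNA runs from 3.82 (Pars2) to 99.2 RPKM (Sars), and the highest mean TE is that of Farsa (1.79).

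Because most amino acids have a cytosolic and a mitochondrial enzyme from separate genes, the members can be compared within pools as 18 pairs. Farsa and Farsb, the subunits of the cytosolic phenylalanine enzyme, were both set against Fars2, and Eprs, which charges glutamate and proline, against Ears2 and Pars2, so these pairs share a gene. RNA of the cytosolic gene was higher in 12 of the 18 pairs and RNA of the mitochondrial gene in 4 (sign-flip permutation test over 24 pools, two-sided, adjusted over the pairs). Eprs exceeded Pars2 13.3-fold (log2 difference 3.73 ± 0.27, SD, n = 24 pools), and Sars exceeded Sars2 13.0-fold (3.70 ± 0.25). Nars exceeded Nars2 6.11-fold and Eprs exceeded Ears2 6.03-fold. In each of these 4 pairs the difference had the same sign in 24 of 24 pools, with a permutation p of 1e-05, the smallest that 100000 sign flips can give (adjusted p = 1.2e-05).

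The order was turned for isoleucine, cysteine and arginine, and for 1 of the 2 subunits of the cytosolic phenylalanine enzyme. Iars2 RNA (mean 70.0 RPKM) stood above Iars RNA (27.2 RPKM) in all 24 pools, with a cytosolic to mitochondrial ratio of 0.388. Cars2 (25.004 RPKM) stood above Cars (9.45 RPKM) with a ratio of 0.380, and Fars2 (44.7 RPKM) above Farsa (19.4 RPKM) with a ratio of 0.435. Farsb (47.5 RPKM), in contrast, stood 1.06-fold above Fars2, in 16 of 24 pools (adjusted permutation p = 0.023). Rars2 exceeded Rars by little (ratio 0.906, in 23 of 24 pools, adjusted permutation p = 1.2e-05). For leucine and tyrosine no difference passed the test. The Lars to Lars2 ratio was 0.972 (log2 difference -0.04 ± 0.21, adjusted permutation p = 0.37) and the Yars to Yars2 ratio 0.989 (-0.02 ± 0.18, adjusted permutation p = 0.68).

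Footprints per transcript were also denser on many cytosolic genes. The median TE was 1.12 for cytosolic and 0.994 for mitochondrial members, against 0.935 for all listed genes. In the 18 pairs, TE was higher for the cytosolic gene in 12 and for the mitochondrial gene in 5 (sign-flip permutation test, adjusted over the pairs), and the median cytosolic to mitochondrial TE ratio was 1.30. Farsa against Fars2 differed by 2.29-fold (log2 difference 1.19 ± 0.20, SD), Wars against Wars2 by 1.78-fold (0.83 ± 0.28) and Cars against Cars2 by 1.701-fold (0.77 ± 0.17), each in 24 of 24 pools (adjusted permutation p = 1.3e-05). Farsa and Cars are thus cytosolic genes with fewer transcripts but more footprints per transcript than their mitochondrial partners. The same held for Iars and Rars (TE ratios 1.19 and 1.39, each in 24 of 24 pools), and so for all 4 pairs with less cytosolic RNA. The 5 pairs with higher TE on the mitochondrial side were Yars2, Ears2, Pars2, Mars2 and Hars2 against Yars, Eprs, Eprs, Mars and Hars, with ratios of 0.742, 0.765, 0.804, 0.857 and 0.848. Sars and Sars2 did not pass (ratio 1.08, log2 difference 0.11 ± 0.29, adjusted permutation p = 0.086).

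**Figure D2:**
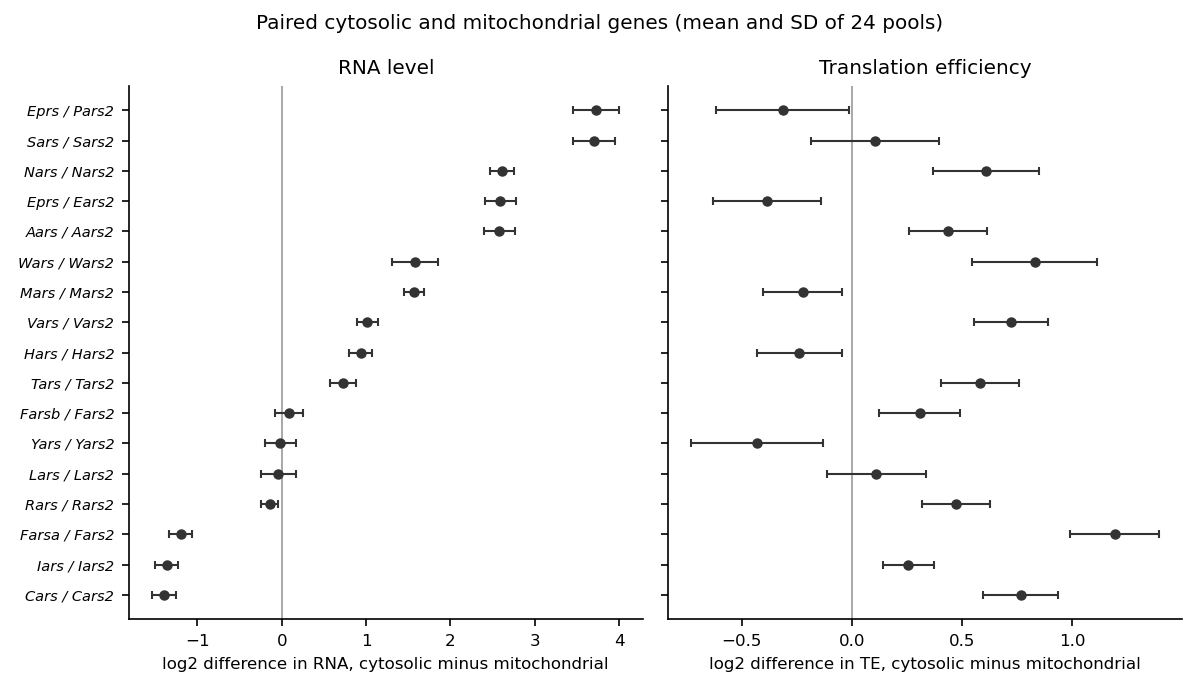
Log2 difference in RNA level (left) and in TE (right) between the cytosolic and the mitochondrial gene of 17 pairs. Points are means and bars SDs over 24 pools, and the vertical line marks no difference. RNA differences run from -1.39 (Cars and Cars2) to 3.73 (Eprs and Pars2), and the TE difference of Farsa and Fars2 is 1.19.

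Relative to the median gene, TE of 6 members was at least 1.5-fold higher at an FDR under 0.05 (limma), compared with 20.6% of all genes tested, and 5 of the 6 were cytosolic. Farsa had TE values from 1.38 to 2.78 (median 1.73) and stood 1.87-fold above the median gene (95% interval 1.76 to 1.98). Wars had TE values from 1.45 to 1.98 and stood 1.81-fold above it, Rars (1.21 to 1.94) 1.69-fold and Nars 1.60-fold. Dars (1.53-fold) and the mitochondrial Yars2 (1.53-fold) lay just inside the limit and Cars (1.43-fold) just outside it.

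No member was 1.5-fold lower by limma at an FDR under 0.05, compared with 26.0% of all genes. Vars2, the mitochondrial valine enzyme, came closest with TE values from 0.523 to 0.937 (median 0.615) and a level 0.67 times that of the median gene (95% interval 0.63 to 0.70). It crossed the limit under some alternatives. Without the limit on the fold, 24 members were higher (16 cytosolic, 8 mitochondrial, compared with 45.2% of all genes) and 6 were lower (44.5% of all genes). The lower ones were Eprs and the mitochondrial Cars2, Fars2, Iars2, Tars2 and Vars2. The lowest TE of the cytosolic set was that of Eprs (0.706 to 0.949, median 0.848), followed by Kars for lysine (0.747 to 1.22), Farsb (0.799 to 1.08) and Mars for methionine (0.819 to 1.13). In the mitochondrial set Fars2 (0.662 to 0.974) and Cars2 (0.647 to 0.958) followed Vars2, and at the upper end stood Yars2 (1.26 to 1.71), Hars2 for histidine (0.883 to 1.59) and Rars2 (0.937 to 1.41). The ranges of these neighbours overlap. Among the cytosolic genes, the 8 of the multi-synthetase complex had a median TE of 1.05 and the other 12 a median of 1.22.

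Daily rhythms were small throughout the family. A 24-h curve was called when the limma F test passed an FDR under 0.05 and the fitted curve rose at least 1.5-fold from trough to peak. By this rule 0 of the 37 members were rhythmic in RNA, in footprints or in TE, compared with 10.2%, 7.58% and 3.74% of all genes tested. At an unadjusted p under 0.05 from the same limma test with no fold limit, 23 members passed in RNA, 17 in footprints and 16 in TE, against 56.3%, 42.6% and 34.0% of all genes. With the fold limit kept, choosing between models by AIC, or precision weights on the recovered reads (RNA and footprints), also gave 0 members, and the added 12-h harmonic gave 2 in footprints (Lars and Pars2). The median peak-to-trough fold of the members was 1.16 in RNA, 1.11 in footprints and 1.13 in TE, and that of all genes 1.20, 1.18 and 1.19.

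With the fold limit set aside, curves of small size could be told from the spread between pools in many members. In RNA 20 of 37 members had an FDR under 0.05 (48.6% of all genes), with folds from 1.12 for Eprs to 1.30 for Vars2. Of the 12 cytosolic members with such a curve, 9 had the fitted peak between ZT12 and ZT24 (Cars, Eprs, Farsa, Farsb, Iars, Nars, Tars, Wars and Yars) and 3 in the light phase (Aars, Qars and Vars). Of the 8 mitochondrial ones, 7 peaked in the light phase (Aars2, Cars2, Hars2, Lars2, Sars2, Tars2 and Vars2), and only Yars2, with its peak at ZT23.2, did not. Over all genes, 25.9% had such a curve with a peak from ZT00 to ZT12 and 22.7% from ZT12 to ZT24. The limit at ZT00 runs through a group of near peaks, since those of Eprs, Nars, Yars, Tars, Yars2 and Cars lay between ZT22.5 and ZT23.9 and those of Aars, Hars2 and Cars2 between ZT0.97 and ZT2.0, with SEs from 0.783 to 1.18 h. The median over members of the log2 deviation from each member's own mean was highest at ZT20 and lowest at ZT14 in the cytosolic set. In the mitochondrial set it was lowest at ZT16 and about equally high at ZT00 (0.0557) and ZT04 (0.0555). The 2 pools of ZT00 differed there (0.119 and -0.0073). The counts of the compartments were not tested against each other.

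The timing was also compared within the pairs. A 24-h curve was fitted to the log2 ratio of the cytosolic to the mitochondrial gene (permutation of the time labels over the 24 pools, adjusted over 18 pairs, chosen after the counts above were seen). In RNA 9 pairs passed, and in 8 of them the ratio peaked between ZT12 and ZT24. Farsb over Fars2 varied 1.26-fold with its peak at ZT19.8 (adjusted permutation p = 0.013), Aars over Aars2 1.28-fold with its peak at ZT21.0 (0.016) and Sars over Sars2 1.34-fold with its peak at ZT19.2 (0.0292). The others were Iars over Iars2, Tars over Tars2, Farsa over Fars2, Eprs over Pars2, Hars over Hars2 (peak ZT12.8, in a pair whose starts lie head to head) and Mars over Mars2, whose ratio peaked at ZT0.87. In footprints 6 pairs passed, 5 of them with the peak in the dark phase, and the exception was Lars over Lars2. The ratios use the same values as the counts above, and some pairs share a gene. Among single genes, 48.6% had an RNA curve and 30.9% a footprint curve at an FDR under 0.05. No share over other pairs of genes was computed, so the counts of pairs cannot be called particular to the members.

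**Figure D3:**
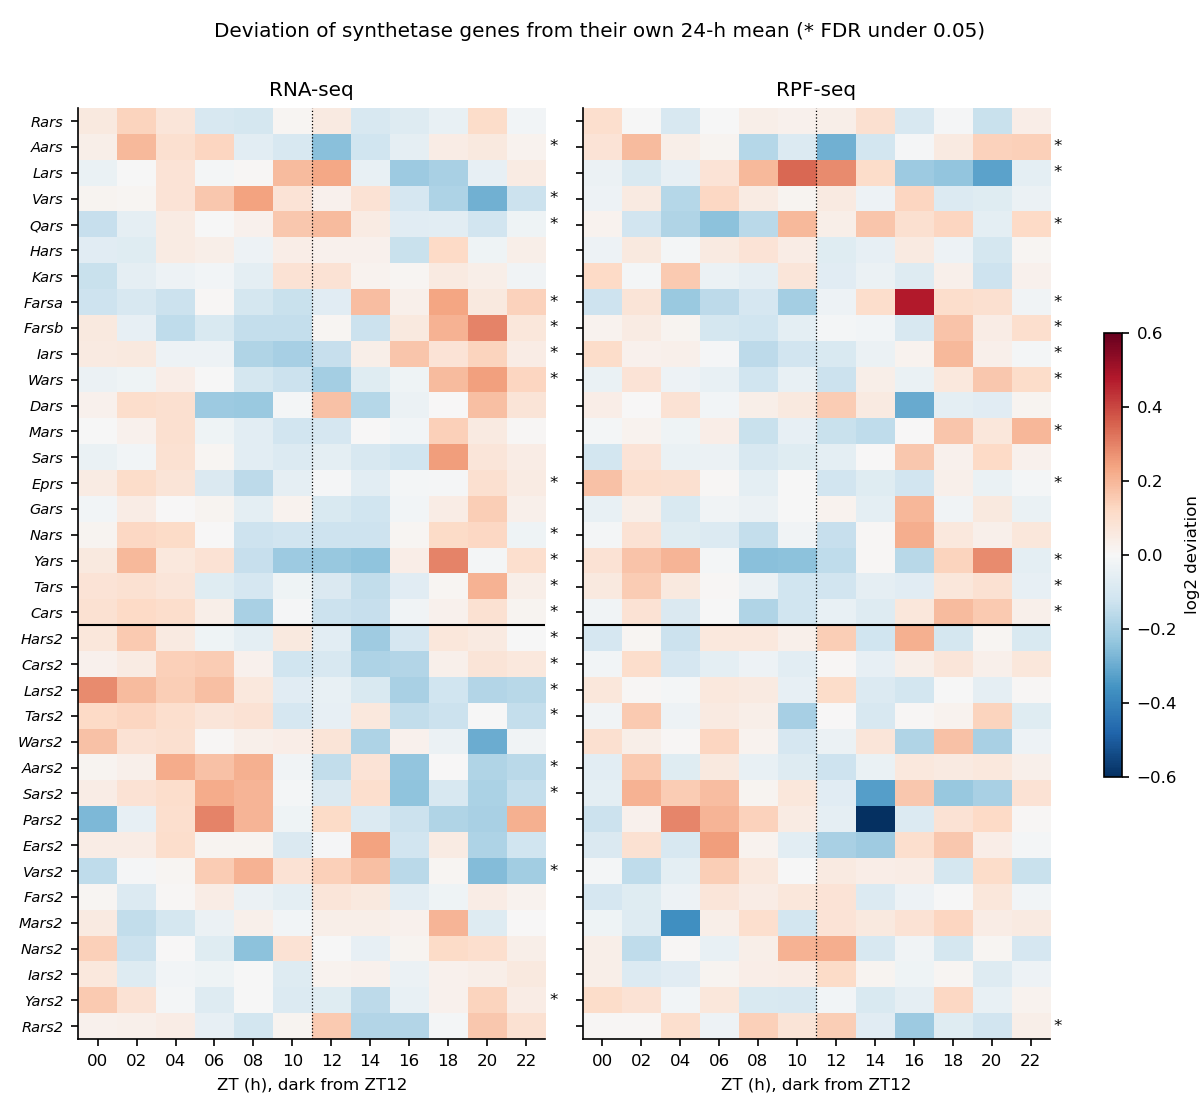
Log2 deviation of 36 genes, each from its own 24-h mean, averaged over 2 pools per time point, in RNA-seq (left) and RPF-seq (right). Cytosolic genes stand above the line and mitochondrial genes below, each ordered by the fitted RNA peak, and asterisks mark an FDR under 0.05 (20 genes in RNA, 13 in RPF). Farsb, Iars and Wars are higher (red) late in the dark phase, and Lars2, Aars2 and Sars2 in the light phase.

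Farsb, the beta subunit of the cytosolic phenylalanine enzyme, had RNA values of 57.3 and 59.1 RPKM at ZT20 and of 41.9 and 43.3 RPKM at ZT04. No pool at ZT04 reached a pool at ZT20, but these were picked as the lowest and highest of 12 time points. Picked extremes can lie apart without a curve. Hars RNA had 37.2 and 36.8 RPKM at ZT16 and 43.6 and 44.7 RPKM at ZT18, with no curve (limma, FDR = 0.88). The fitted RNA curve of Farsb rose 1.26-fold (log2 0.34 ± 0.06, SE) with its peak at ZT19.6 (limma, FDR = 0.00016). Its partner Farsa peaked at ZT17.7 with a fold of 1.20 (FDR = 0.010), although Farsa RNA was less than that of Farsb at every time point. The footprints of Farsb varied 1.13-fold and peaked at ZT21.0.

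Iars RNA was lower before lights-off, with 22.3 and 24.9 RPKM at ZT10, than at ZT16, with 29.2 and 31.9 RPKM, and its curve rose 1.21-fold with a peak at ZT20.4 (limma, FDR = 0.00098). Wars RNA ran from 22.4 and 20.5 RPKM at ZT12 to 28.3 and 30.3 RPKM at ZT20 (1.22-fold, peak ZT21.3, FDR = 0.0033). Aars RNA had its extremes at ZT02 (66.3 and 65.9 RPKM) and ZT12 (49.96 and 47.1 RPKM), with a 1.21-fold curve that peaked at ZT0.97 (FDR = 0.0012). Across these 3 genes, which charge isoleucine, tryptophan and alanine tRNA, the pools of the lowest and highest time points did not overlap. The time points were picked from these same values, so this is no test of the curves.

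Vars, the cytosolic valine enzyme, had RNA values of 20.3 and 20.3 RPKM at ZT08 and 14.1 and 13.999 RPKM at ZT20, with a 1.29-fold curve with a peak at ZT7.5 (limma, FDR = 0.00015). The mitochondrial Vars2 had RNA of 10.0 and 9.52 RPKM at ZT08 and 6.58 and 7.50 RPKM at ZT20 (1.30-fold, peak ZT9.2, FDR = 0.00054). Both genes lie on chromosome 17 (GRCm38, Vars 35000987 to 35016322 and Vars2 35655634 to 35667592). RNA of both valine genes was lower at ZT20 than at ZT08, but neither footprint curve passed (Vars 1.07-fold, limma FDR = 0.56, and Vars2 1.09-fold, FDR = 0.51). The curve of the Vars to Vars2 ratio did not pass in RNA (adjusted permutation p = 0.087) or in footprints (0.933).

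Lars2, the mitochondrial leucine enzyme, had 27.1 and 24.3 RPKM of RNA at ZT00 and 18.8 and 18.1 RPKM at ZT16. Its curve rose 1.30-fold with a peak at ZT4.1 (limma, FDR = 0.00020). The values fell gradually over the light phase and stayed low in the dark. Aars2 had 11.9 and 10.5 RPKM at ZT04 and 7.77 and 8.46 RPKM at ZT16 (1.25-fold, peak ZT5.9, FDR = 0.018). Sars2 rested on fewer reads, 99 to 448 in RNA, and its 1.27-fold curve with a peak at ZT6.1 had an FDR of 0.030.

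For the other cytosolic genes with an RNA curve the folds ran from 1.12 to 1.27. Tars RNA, for threonine, was 23.3 and 25.6 RPKM at ZT14 and 30.5 and 31.9 RPKM at ZT20 (1.17-fold, peak ZT23.2, limma FDR = 0.0065). Nars had 77.2 and 80.3 RPKM at ZT14 and 90.8 and 96.6 RPKM at ZT02 (1.16-fold, peak ZT23.0), Eprs 46.1 and 45.9 RPKM at ZT08 and 54.3 and 56.2 RPKM at ZT02 (1.12-fold, peak ZT22.5), and Cars 8.57 and 7.86 RPKM at ZT08 and 10.7 and 9.74 RPKM at ZT02 (1.17-fold, peak ZT23.9). These 4 cytosolic genes had their lowest mean at ZT08 or ZT14 and their highest at ZT20 or ZT02. Yars, which rests on few reads, had 14.3 and 17.8 RPKM at ZT14 and 20.5 and 26.2 RPKM at ZT18 (1.27-fold, peak ZT23.1, FDR = 0.0091).

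Of the mitochondrial genes, Cars2 had 21.9 and 21.8 RPKM at ZT14 and 26.7 and 28.8 RPKM at ZT06 (1.19-fold, peak ZT2.0, limma FDR = 0.0079). Hars2 had 18.2 and 18.4 RPKM at ZT14 and 23.8 and 23.4 RPKM at ZT02 (1.14-fold, peak ZT1.1, FDR = 0.026). Yars2 had 16.7 and 17.4 RPKM at ZT14 and 20.96 and 21.5 RPKM at ZT00 (1.16-fold, peak ZT23.2, FDR = 0.0026). For these 3 genes ZT14 was the lowest time point. Tars2 had 15.0 and 14.3 RPKM at ZT16 and 18.03 and 17.6 RPKM at ZT02 (1.15-fold, peak ZT4.2, FDR = 0.027).

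In footprints 13 members had an FDR under 0.05 (30.9% of all genes), and 12 of them were cytosolic. Among the cytosolic members, 10 had such a curve in RNA and in footprints, 2 only in RNA (Nars and Vars) and 2 only in footprints (Lars and Mars). None of the 8 mitochondrial members with an RNA curve had one in footprints by limma. The share of all genes with an RNA curve that also had a footprint curve was not computed. These overlaps can therefore not be called particular to the members or to a compartment. In footprints 4 mitochondrial members had an unadjusted limma p under 0.05 (Mars2, Pars2, Rars2 and Sars2) and 1, Rars2, an FDR under 0.05. Precision weights on the recovered reads gave the same count of 1, and the added 12-h harmonic gave 2. Rars2 itself passed with a fold of 1.15 and a peak at ZT6.5 (limma, FDR = 0.038), and not without the ZT04 replicate 2 pool. Without the 4 pools that lay farthest from the curves, 1 mitochondrial member passed, which was Sars2 and not Rars2. The count of cytosolic members was 12 in footprints without that pool and 8 without the 4 pools, where Farsa, Tars, Wars and Yars no longer passed. Of the 12 cytosolic members, 9 peaked between ZT12 and ZT24 in footprints, and 3 (Eprs, Lars and Tars) between ZT00 and ZT12. Over all genes 13.6% had a footprint curve with a peak in the dark phase and 17.3% in the light phase.

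Lars, which charges leucine tRNA in the cytosol and is also known as a leucine sensor of the mTORC1 pathway, had the widest footprint curve of the family. Its RPF values were 29.1 and 30.8 RPKM at ZT10 and 19.4 and 18.2 RPKM at ZT20, and over all pools they ran from 18.2 to 30.8 RPKM (median 23.4). The pools around lights-off were the high ones, with 28.5 and 29.0 RPKM at ZT12, and none of the 6 pools from ZT16 to ZT20 exceeded 21.2 RPKM. The fitted curve rose 1.40-fold (log2 0.48 ± 0.07, SE) with a peak at ZT9.0 (limma, FDR = 0.00011). Lars RNA went from 18.2 and 17.1 RPKM at ZT16 to 23.7 and 24.5 RPKM at ZT12, and its 1.16-fold curve missed the threshold (FDR = 0.063) but passed with precision weights and with the 12-h harmonic. TE of Lars was 1.30 and 1.32 at ZT08 and 1.04 and 0.866 at ZT20 (1.23-fold, peak ZT10.1, FDR = 0.014). The RNA libraries of ZT10 replicate 2 and ZT12 replicate 2 are among those that lay far from the curves, and Lars passed in footprints and in TE also without those pools. Against Lars2, whose footprints stayed between 19.7 and 25.1 RPKM, the footprint ratio varied 1.36-fold with a peak at ZT9.7 (adjusted permutation p = 0.0018).

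Aars footprints followed its RNA, with 81.8 and 80.9 RPKM at ZT02 and 55.4 and 61.7 RPKM at ZT12 (1.27-fold, peak ZT23.1, limma FDR = 0.00077). Farsa had a 1.31-fold footprint curve with a peak at ZT17.3 (FDR = 0.020), and its highest value, 54.2 RPKM at ZT16, came from replicate 2 while replicate 1 had 42.2 RPKM. That replicate 2 library is among those that lay farthest from the fitted curves.

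The other cytosolic footprint curves had folds from 1.13 to 1.27. Eprs had 40.4 and 39.3 RPKM of footprints at ZT12 and 48.97 and 48.8 RPKM at ZT00 (1.15-fold, peak ZT1.5, limma FDR = 0.0068). Cars had 12.3 and 10.4 RPKM at ZT08 and 14.2 and 15.04 RPKM at ZT18 (1.18-fold, peak ZT20.2, FDR = 0.017). Wars had 37.8 and 39.5 RPKM at ZT12 and 48.5 and 46.2 RPKM at ZT20 (1.14-fold, peak ZT21.04, FDR = 0.043). In each of these 3 genes both pools of the highest time point lay above both of the lowest, time points picked from these same values. Mars, which serves initiator and elongator tRNA, had 25.2 and 23.3 RPKM at ZT14 and 29.6 and 32.1 RPKM at ZT22 (1.17-fold, peak ZT21.8, FDR = 0.043), and its 1.10-fold RNA curve did not pass (FDR = 0.098). The folds of Tars and Iars were 1.13 and 1.14, with peaks at ZT0.04 and ZT21.3, and that of Yars was 1.27 with its peak at ZT22.9.

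**Figure D4:**
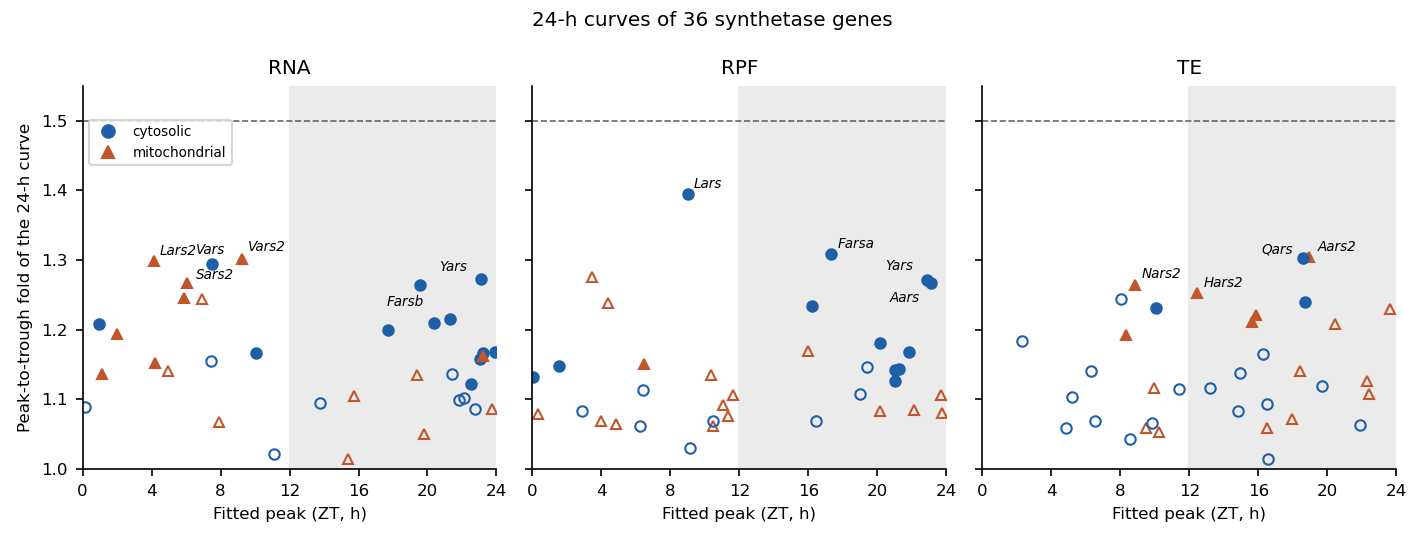
Peak-to-trough fold of the fitted 24-h curve against its peak time for 36 genes in RNA (left), RPF (middle) and TE (right). Filled symbols have an FDR under 0.05, circles are cytosolic, triangles mitochondrial, grey marks the dark phase and the dashed line the fold limit of 1.5. No symbol reaches the limit, and the highest is Lars in RPF at 1.40.

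In TE 9 members had an FDR under 0.05 (17.1% of all genes), 3 cytosolic (Lars, Qars and Vars) and 6 mitochondrial (Aars2, Cars2, Hars2, Lars2, Nars2 and Rars2). The count was 6 without the ZT04 replicate 2 pool, where Cars2, Hars2 and Vars no longer passed, and 2 (Lars2 and Qars) with the 12-h harmonic added. Without the 4 pools that lay farthest from the curves it was also 6, of which 4 were cytosolic (Dars, Lars, Qars and Vars) and 2 mitochondrial (Aars2 and Rars2), and Cars2, Hars2, Lars2 and Nars2 no longer passed. Of the 9 curves 6 peaked between ZT12 and ZT24 (8.08% of all genes) and 3 between ZT00 and ZT12 (9.01%). TE is a ratio, so a curve in RNA with no matching one in footprints appears in it with the opposite phase. Lars2 had a TE of 0.888 and 0.943 at ZT00 and of 1.22 and 1.19 at ZT22. Its TE curve peaked at ZT15.9 (1.22-fold, limma FDR = 0.025), whereas its RNA peaked at ZT4.1. Aars2 TE was 0.659 and 0.835 at ZT04 and 1.08 and 1.17 at ZT16 (1.30-fold, peak ZT18.9, FDR = 0.033). Rars2 differed from these, with no RNA curve and a TE of 1.33 and 1.41 at ZT08 against 0.961 and 0.937 at ZT20 (1.19-fold, peak ZT8.3, FDR = 0.023).

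The other TE curves lay closer to the threshold. Vars, whose RNA was high in the light phase and whose footprint curve did not pass (1.07-fold, limma FDR = 0.56), had a TE of 0.910 and 0.846 at ZT04 and of 1.14 and 1.32 at ZT16 (1.24-fold, peak ZT18.7, FDR = 0.037). Cars2 TE was 0.702 and 0.647 at ZT04 and 0.903 and 0.945 at ZT16 (1.21-fold, peak ZT15.6, FDR = 0.041), and Hars2 TE 1.05 and 1.02 at ZT04 and 1.34 and 1.59 at ZT16 (1.25-fold, peak ZT12.5, FDR = 0.043). These 3 genes had their lowest mean at ZT04 and their highest at ZT16, time points whose replicate 2 footprint libraries lay far from the curves of all genes. The TE of Nars2, which charges asparagine tRNA in mitochondria, was 1.01 and 0.716 at ZT18 and 1.41 and 1.04 at ZT08 (peak ZT8.9, FDR = 0.044), so that the replicates differed by about as much as the time points.

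Qars, the glutamine enzyme of the multi-synthetase complex (chromosome 9, GRCm38, 108507706 to 108515941), had a later fitted peak in footprints than in transcripts. Its RNA was 42.3 and 43.0 RPKM at ZT00 and 49.3 and 58.1 RPKM at ZT12, with the fitted peak at ZT10.1 (1.17-fold, limma FDR = 0.0038). Its footprints were 36.2 and 45.2 RPKM at ZT06, 52.2 and 57.7 RPKM at ZT10, the highest time point, and 51.3 and 56.7 RPKM at ZT14, with the fitted peak at ZT16.2 (1.23-fold, FDR = 0.020). TE ran from 0.771 and 0.965 at ZT06 to 1.20 and 1.14 at ZT18 (1.30-fold, log2 0.38 ± 0.08, SE, peak ZT18.6, FDR = 0.0069). The replicates were far apart at ZT08, with 36.8 and 50.2 RPKM of footprints. Qars was the only member with an FDR under 0.05 in TE in every alternative fit that kept both replicate series.

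**Figure D5:**
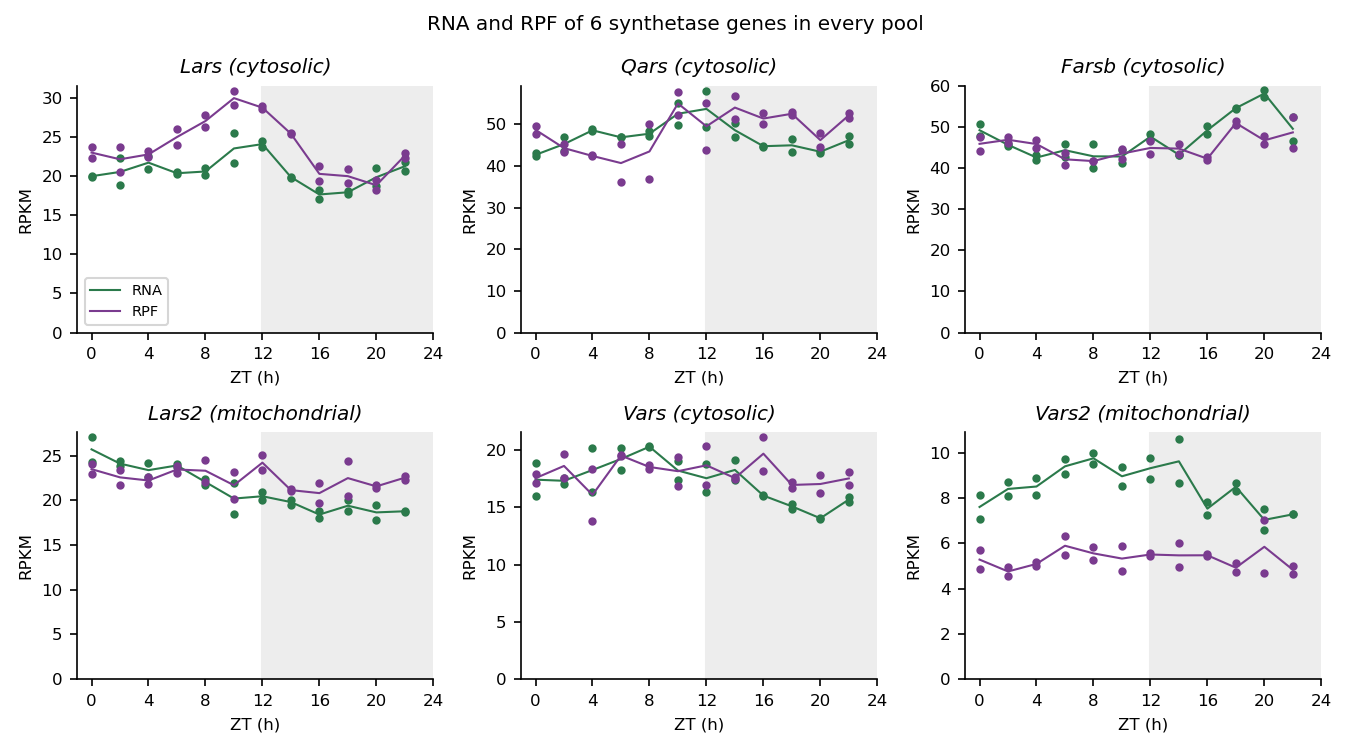
RPKM in RNA-seq (green) and RPF-seq (purple) against ZT for Lars, Qars, Farsb, Lars2, Vars and Vars2. Points are single pools, lines join the means of 2 pools, and grey marks the dark phase. Lars footprints are highest at ZT10 (29.1 and 30.8 RPKM), and Vars RNA is lowest at ZT20 (14.1 and 13.999 RPKM).

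The promoters of the members were read for the core of the element that ATF4 binds. RefSeq start sites (GRCm38.p6) were found for 27 of the 37 members, and the windows reached from 250 bases before to 50 bases after the start. The letters TGATGNAA on either strand were present in 5 of 13 cytosolic genes (Aars, Gars, Iars, Tars and Yars) and in 0 of 14 mitochondrial ones. Of all 27025 genes with such windows, 4.51% held these letters in at least 1 window. The E-box CACGTG, the core to which the clock factors Bmal1 and Clock bind, was present in 4 of 13 cytosolic genes (Aars, Farsb, Iars and Tars) and in 1 of 14 mitochondrial genes (Ears2), compared with 8.09% of all genes. For each gene 1 site is shown with 11 bases on each side, and a second site of Aars, at chr8:111033719-111033748, is not shown. Of these 5 genes 4 had a curve in RNA at an FDR under 0.05, compared with 12 of the 20 cytosolic members and 48.6% of all genes. Capitals mark the 8 letters searched, and each sequence is written 5′ to 3′ on the strand that holds them.
Aars, chr8:111033840-111033869, minus strand: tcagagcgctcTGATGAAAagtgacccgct
Gars, chr6:55037960-55037989, minus strand: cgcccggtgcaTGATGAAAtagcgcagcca
Iars, chr13:49682126-49682155, minus strand: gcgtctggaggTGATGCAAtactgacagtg
Tars, chr15:11399655-11399684, plus strand: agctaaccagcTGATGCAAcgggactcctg
Yars, chr4:129189895-129189924, plus strand: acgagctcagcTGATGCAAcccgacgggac

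In the GENCODE models, the letters of Gars and Tars lie outside the gene, just before its first base. Those of Aars, Iars and Yars lie in an exon of some transcripts only (1 of 7 in Aars, 2 of 9 in Iars and 2 of 8 in Yars). They are UTR there, except in 1 Yars transcript where they are coding. The strand of the letters is the strand of the gene only in Yars. The RNA curves of the 5 genes peaked between ZT20.4 (Iars) and ZT0.97 (Aars). That of Gars did not pass (1.09-fold, peak ZT22.7, limma FDR = 0.11). The other cytosolic genes with a window lacked the letters. Among them Dars, Eprs, Mars and Sars had fitted RNA peaks in the same span (ZT21.4 to ZT22.5), where only Eprs passed an FDR of 0.05. Farsa, Farsb, Kars and Qars peaked outside it (ZT10.1 to ZT19.6), and of these Kars did not pass. A link between the letters and the peak time was not tested. A match of letters is a description of the window and shows no binding.

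Other genes of the pathway are given by fixed lists. Of 18 partners of tRNA charging and repair, 0 were called in RNA, footprints or TE by limma with the 1.5-fold limit (10.2%, 7.58% and 3.74% of all genes), and 6 had an RNA curve at an FDR under 0.05 (48.6% of all genes), 5 of them with a peak between ZT12 and ZT24 (22.7%). Eef1e1, a scaffold protein of the multi-synthetase complex, had an RNA fold of 1.31 with a peak at ZT17.7 (FDR = 0.013) and a footprint fold of 1.30 (peak ZT20.7, FDR = 0.0023). The scaffold genes Aimp1 and Aimp2 had RNA folds of 1.11 and 1.04 that did not pass (FDR = 0.17 and 0.82). Tarsl2, a further threonine enzyme whose symbol falls outside the rule, had 8.52 ± 0.785 RPKM of RNA (SD, n = 24 pools) and no curve (1.03-fold, limma FDR = 0.89).

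Of 23 genes of the amino acid response, 19 were listed, 7 had an RNA curve at an FDR under 0.05 (48.6% of all genes) and 2, Atf4 and Mthfd2, passed with the 1.5-fold limit (10.2% of all genes). Atf4 RNA rose 1.67-fold with a peak at ZT18.1 (limma, FDR = 1.4e-06) and its footprints 1.86-fold with a peak at ZT17.2 (FDR = 0.0018), and its TE was 0.192 times that of the median gene. Asns, which makes asparagine, rose 1.45-fold in RNA with a peak at ZT23.3 (FDR = 0.017), and its footprint curve did not pass (1.18-fold, FDR = 0.41). With the 1.5-fold limit 2 genes, Atf4 and Ddit4, passed in footprints (7.58% of all genes) and 1, Ddit4, in TE (3.74%). Ddit4 rose 1.51-fold in footprints (limma, FDR = 0.023) and 1.76-fold in TE (FDR = 0.0021). Of the 7 genes with an RNA curve, 5 peaked between ZT12 and ZT24 (22.7% of all genes) and 2 between ZT00 and ZT12 (25.9%).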

How the data were processed

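RNA-seq and RPF-seq were measured in 48 kidney libraries, 24 per assay. The authors trimmed adapters with cutadapt, mapped reads with Bowtie2 2.2.1 and TopHat2 2.0.11 to GRCm38, took transcript models from Cufflinks 2.2.1, assigned reads to coding sequences, scaled libraries by upper quartiles with edgeR and deposited RPKM values, 1 for each gene in each library (tool names and versions partly from the submitters' processing notes). Such scaling hides changes in total RNA or footprints per cell. No other deposited column was used.

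Genes of both assays were matched to symbols (12373 of 12423). Values were analysed as log2(RPKM + 0.1), a scale that understates changes of low genes, for the 11863 genes with a median of at least 0.5 RPKM in both assays. Cosine and sine terms of 24 h were tested with limma 3.58.1 (R 4.3.3, moderated F test, Benjamini-Hochberg adjustment over all genes), for TE on the log2 ratio within a pool. TE levels were compared with the median gene by limma. Pairs were tested by 100000 sign flips or permutations (numpy 2.4.6, Python 3.11.15). RPKM steps gave whole reads (tolerance 0.005) for 99.8% of RNA and 99.5% of RPF genes. These were used for depth and precision weights only. Positions come from GENCODE vM21 and promoters from RefSeq. The fits were tested on simulated data.

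The members, lists and tests were chosen with earlier results of these data known. Named were all members with an FDR under 0.05 in a rhythm, the 3 highest and lowest in RNA and TE of each set, and the 3 most different pairs. Replicates are separate pools of mice. Alternatives comprised AIC choice, an FDR of 0.01, a 12-h harmonic, filters at 2 RPKM or at no minimum, pseudocounts of 0.01 and 1, quantile normalisation, other centring, a replicate block, leaving out each replicate series and, added after seeing the data, rules on the FDR alone, precision weights, leaving out ZT04 replicate 2 or 4 pools together, and the curves of pair ratios. The liver libraries of the study were not used here, and some items are not reported here.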

Additional observations from a re-analysis of the deposited data

How the results depend on the processing

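Of the single-gene results for RNA, footprint and TE curves, most kept their side of the threshold, but counts at the FDR alone depended on having both replicate series. With 1 replicate series left out, which leaves 12 libraries per assay, 0 to 12 members had an RNA curve at an FDR under 0.05, 0 to 4 a footprint curve and 0 a TE curve. Over all genes the share was 10.1% without replicate 1 and 34.9% without replicate 2 in RNA, 3.88% and 17.5% in footprints. With both series kept, 15 RNA, 5 footprint (Aars, Cars, Eprs, Lars and Qars) and 1 TE member (Qars) passed in every other refit tested at that threshold. At an FDR under 0.01 the counts were 13, 3 and 1. AIC choice gave 24 members in footprints and 21 in TE. The shares of all genes at that FDR and by AIC are not given here, so these counts cannot be called particular to the members. The 12-h harmonic gave 2 members in TE at the FDR alone, and 2 in footprints (Lars and Pars2) with the 1.5-fold limit. With no fold minimum the rhythm counts were 20, 13 and 9, and the TE level counts 24 higher and 6 lower. For a lower TE level, 1 member (Vars2) passed with the pseudocount of 0.01, with the RPKM minimum of 2, without centring and without 4 pools. The median cytosolic TE was 1.16 without replicate 2 and 1.10 without replicate 1. A shift of the centre turned the sign of Hars TE (log2 level -0.0057 without centring) and Iars2 TE (0.049 with mean centring), and Lars against Lars2 TE was -0.035 in dark phase pools only. The cause of these changes was not tested.

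Deviations at different time points correlated by 0.0291 in RNA on average, from -0.181 to 0.480 over 66 pairs of time points, with 13 of them over 0.1. A mean near 0 cannot show that no time points share a batch. Whether the replicate number marks a batch or the day of collection was not tested. The fit with the replicate block gave 20, 13 and 9 members at the FDR alone, 0 with the fold limit, and 6 with a higher TE level, as without it. Low reads limit Pars2, Wars2, Sars2 and Yars most.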

Other observations

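The genomic neighbourhood of the members was read from the gene models. A gene on the opposite strand with its start within 1000 bases was found for 6 of the 17 mitochondrial members and 4 of the 20 cytosolic ones (35.3% and 20.0%), compared with 15.5% of protein-coding genes listed in both assays. Hars and Hars2 are such partners of each other, and their models overlap at the starts. Sars2 stands 172 bases from Mrps12, a protein of the mitochondrial ribosome, and Rars2 13 bases from Orc3, a subunit of the origin recognition complex. Eprs and Iars2 are the other members within 200 kb of one another. No test of these counts was made.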
